A study of Mus musculus with 24 samples.

Results

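The 10 genes described here make, load and control the major histocompatibility complex (MHC) class I molecule, and they were taken as every row of the deposited gene-by-cell matrix that carried 1 of the symbols H2-K1, H2-D1, B2m, Tap1, Tap2, Tapbp, Nlrc5, Psmb8, Psmb9 and Psmb10. All 10 symbols were found, among 32285 genes measured. The question was whether tumor cells raised these genes when mice received PancVAX, a vaccine of synthetic tumor neoantigen peptides, and how the genes stood in the stromal, endothelial and immune cells of the same tumors. Across 8 pools of tumors, none of the 10 genes passed the test for PancVAX in tumor cells, beside 0% of 11360 genes tested there. Psmb8 passed in a second comparison, of 1 pool with PancVAX against 1 control pool, when cells with high counts were kept. In that comparison 2.97% of 15019 genes passed. Levels were taken as a share of all RNA counted, not per cell. By this share, most of these genes were lower in tumor cells than in endothelial cells, macrophages, dendritic cells and T cells. The margin, within pools, was widest for Psmb8.

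MHC class I molecules show fragments of a cell's own proteins to CD8 T cells, which is how a T cell raised by a neoantigen vaccine can recognize a tumor cell. Proteins are cut by the proteasome, the peptides are pumped into the endoplasmic reticulum and fitted onto the class I heavy chain with β2-microglobulin, and the complex then moves to the cell surface. Interferon gamma from activated T cells raises most genes of this pathway together, replaces the constitutive catalytic proteasome subunits with the immunoproteasome ones, and acts on promoters that also bind the NLRC5 enhanceosome.

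Tumors came from Panc02, a mouse pancreatic cancer cell line, implanted under the skin of wild-type male C57BL/6 mice aged 6 to 7 weeks. Every mouse therefore carried the same line at a site other than the pancreas. PancVAX was given on days 12 and 19 at 50 μg per peptide, with PBS in its place in the other mice, and the mix also held the adjuvant AddaVax and a STING agonist, so an effect of PancVAX joins the peptides and both adjuvants. Anti–PD-1 (100 μg from day 12, 2 times a week) and anti–CTLA-4 (100 μg on days 15 and 22) block inhibitory receptors of T cells, and isotype antibodies took their place. The 8 treatments were isotype, anti–PD-1, anti–CTLA-4, anti–PD-1 with anti–CTLA-4, and each of these with PancVAX, and tumors were collected on day 38. Tumors of a treatment were pooled and gave 1 library from whole tumor and 1 after Percoll enrichment, 16 in all. Preparation and sequencing batch cannot be told apart. Both libraries of a treatment were summed into a pool, so 4 pools with PancVAX were compared with 4 without, and p-values measure the spread between pools.

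The libraries held 77132398 to 176233225 unique molecular identifiers (UMIs, 1 per captured RNA molecule), and 57340 of 144994 barcodes lay within the cell limits of the study, which include upper limits of 3000 genes and 10000 UMIs. These upper limits removed most tumor cells. The tumor gate (UMIs of both Krt8 and Krt18, the keratins of simple epithelium, and no Ptprc, which encodes the leukocyte antigen CD45) held 7924 cells within the limits and 49398 without the upper ones, of which the former are 16.0%. The test of PancVAX in tumor cells is therefore given within the limits first and then without the upper ones. The other gates held 132 stromal, 168 endothelial, 11916 macrophage, 436 dendritic and 12051 T cells, of which 8831 were CD8 T cells, and no cell fell in more than 1 gate. Among 55228 distinct barcodes 2055 occurred in more than 1 library, but libraries of 1 treatment shared no more (11 to 42) than other pairs (5 to 45).

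The label tumor held in part by its markers. The summed tumor gate had 745 CPM (counts-per-million, the UMIs of a gene scaled by all UMIs of the gate) of Krt8, 1333 of Krt18, and 128 of Msln, but only 3.80 of Epcam, 8.50 of Cdh1 and none of Cldn4, so several defining genes of epithelial junctions were near or at 0. It also held 697 CPM of Sox9, 391 of Prelp and 266 of Ogn, genes used to mark a Sox9 stromal cell, and 59.0% of tumor-gate cells (69.4% without the upper limits) had at least 2 of these 3, against 43.2% (52.7%) of stromal-gate cells. The gate is therefore called tumor by its keratin rule. Each other gate was led by its own markers, with 12324 CPM of Col1a1 in the stromal gate, 946 of Pecam1 in the endothelial gate, 5088 of C1qa in the macrophage gate, 142 of Flt3 in the dendritic gate and 1201 of Cd3e in the T gate. The rule of the tumor gate holds markers of several other types low, so their sums do not measure all RNA from other cells. It allows no Ptprc and at most 1 marker each of T cells, macrophages, endothelial cells, keratinocytes, neutrophils, B, NK, mast and plasmacytoid dendritic cells. The tumor gate sets no limit on markers of stromal cells, dendritic cells, pericytes or muscle. All 10 T cell markers had a UMI there, and summed to 7.82 to 23.3 CPM in pools with PancVAX and 5.67 to 7.80 without it (exact permutation test, two-sided, p = 0.0286, the smallest that 4 against 4 allows), against 4826 to 5787 in the T gate. All 10 macrophage markers had a UMI and summed to 42.0 to 62.0 with PancVAX and 41.1 to 57.3 without it, against 19429 to 20513 in the macrophage gate. The 5 neutrophil markers summed to 4.79 to 14.6 with PancVAX and 2.00 to 4.41 without. The part of such RNA in the values below was not tested, and cells with any UMI of these markers were left out as an alternative.

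The heavy chains are H2-K1 (ENSMUSG00000061232) and H2-D1 (ENSMUSG00000073411), the classical class I molecules of this strain, and B2m (ENSMUSG00000060802) encodes β2-microglobulin, the light chain without which they do not fold. H2-K1 and H2-D1 are near-identical to each other and to the H2-Q genes, so reads could be split between them by the counting, and their separate values are uncertain. Tap1 (ENSMUSG00000037321) and Tap2 (ENSMUSG00000024339) form the peptide transporter, and Tapbp (ENSMUSG00000024308) encodes tapasin, which holds the empty class I molecule at the transporter. Nlrc5 (ENSMUSG00000074151) is the transactivator of class I genes. Psmb8 (ENSMUSG00000024338), Psmb9 (ENSMUSG00000096727) and Psmb10 (ENSMUSG00000031897) encode the catalytic subunits of the immunoproteasome.

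The promoters of 3 members that form the complex itself and of Psmb8, the member with the widest range between cell types, are shown because interferon and NLRC5 act on class I genes through such sequences. Promoters came from the RefSeq table for GRCm38.p6, in which 8 of the 10 members were matched, all but Tap2 and Nlrc5. The last 180 bases before each start are given, for H2-K1 at chr17:34000348-34000527 (minus strand, the first of 2 entries), for H2-D1 at chr17:35262914-35263093 (plus), for B2m at chr2:122147507-122147686 (plus) and for Psmb8 at chr17:34198015-34198194 (plus). They run 5′ to 3′ along the gene, with matches to the motifs named after them in capitals.
H2-K1: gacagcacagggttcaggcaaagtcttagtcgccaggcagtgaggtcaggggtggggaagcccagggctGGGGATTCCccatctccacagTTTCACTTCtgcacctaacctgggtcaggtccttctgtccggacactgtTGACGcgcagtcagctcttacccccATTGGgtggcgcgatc
H2-D1: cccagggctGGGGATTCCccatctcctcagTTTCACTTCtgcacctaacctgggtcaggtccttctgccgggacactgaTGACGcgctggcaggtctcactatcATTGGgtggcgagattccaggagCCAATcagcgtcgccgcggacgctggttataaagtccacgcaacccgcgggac
B2m: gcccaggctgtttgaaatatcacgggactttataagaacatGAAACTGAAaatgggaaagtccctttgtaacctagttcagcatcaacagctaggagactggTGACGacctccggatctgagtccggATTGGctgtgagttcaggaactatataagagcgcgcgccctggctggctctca
Psmb8: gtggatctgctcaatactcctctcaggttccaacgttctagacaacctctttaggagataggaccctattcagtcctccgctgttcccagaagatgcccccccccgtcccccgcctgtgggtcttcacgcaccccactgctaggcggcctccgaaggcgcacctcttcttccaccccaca

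Motifs were searched on both strands in the 250 bases before each start. The interferon regulatory factor motif written as GAANNGAAA was in the promoters of H2-K1 and H2-D1 and in 6.31% of 32851 promoters of that length, and the related GAAANNGAA, which overlaps it in its letters, was in B2m and in 7.13%. H2-K1 and H2-D1 also shared GGGGATTCC, a κB motif found in 0.213% of promoters, which began 111 bases before the start of H2-K1 and 171 bases before that of H2-D1. TGACG, the core of the X2 box, was in 5 of the 8 promoters and in 17.8% of all, and CCAAT, the core of the Y box, was in 6 of the 8 and in 33.8% of all. The Psmb8 window held none of these letters. The Tap1 (chr17:34187376-34187555, plus) and Psmb9 (chr17:34187331-34187510, minus) windows overlapped, since these genes start head to head. Their TGACG match and their CCAAT match are each the same bases read from either side. Each of these sites was thus counted for both genes above. A match is only a match of letters in this window.

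Cell types were first compared over all 8 pools, with the level as CPM of UMIs summed over the cells of a gate. CPM is a share of UMIs, and amounts per cell were not compared. Median UMIs within the limits were 6400 in tumor, 6071 in dendritic, 4098.5 in endothelial, 3811 in macrophage and 3609 in T cells. Without the upper limits they were 19257, 11112.5, 10943, 5263 and 3825 in the same order. H2-K1 stood at 830 ± 161 CPM (SD, n = 8 pools) in tumor cells, 988 ± 320 in stromal cells (n = 6, since 2 pools had under 10 stromal cells), 2526 ± 390 in endothelial cells, 1870 ± 79.1 in macrophages, 1872 ± 175 in dendritic cells and 3146 ± 247 in T cells. T cells were thus highest and tumor and stromal cells lowest for this heavy chain, while macrophages and dendritic cells next to each other did not differ beyond their spread (exact sign-flip test, adjusted p = 0.977). The H2-D1 level was 1011 ± 119 CPM in tumor cells and 2763 ± 341 in endothelial cells, the highest gate, and the B2m level was 936 ± 113 against 3013 ± 347 in the same gates. For B2m the endothelial, T and macrophage gates in turn did not differ beyond their spread, with adjusted p of 0.234 and 0.230 between neighbours.

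**Figure D1:**
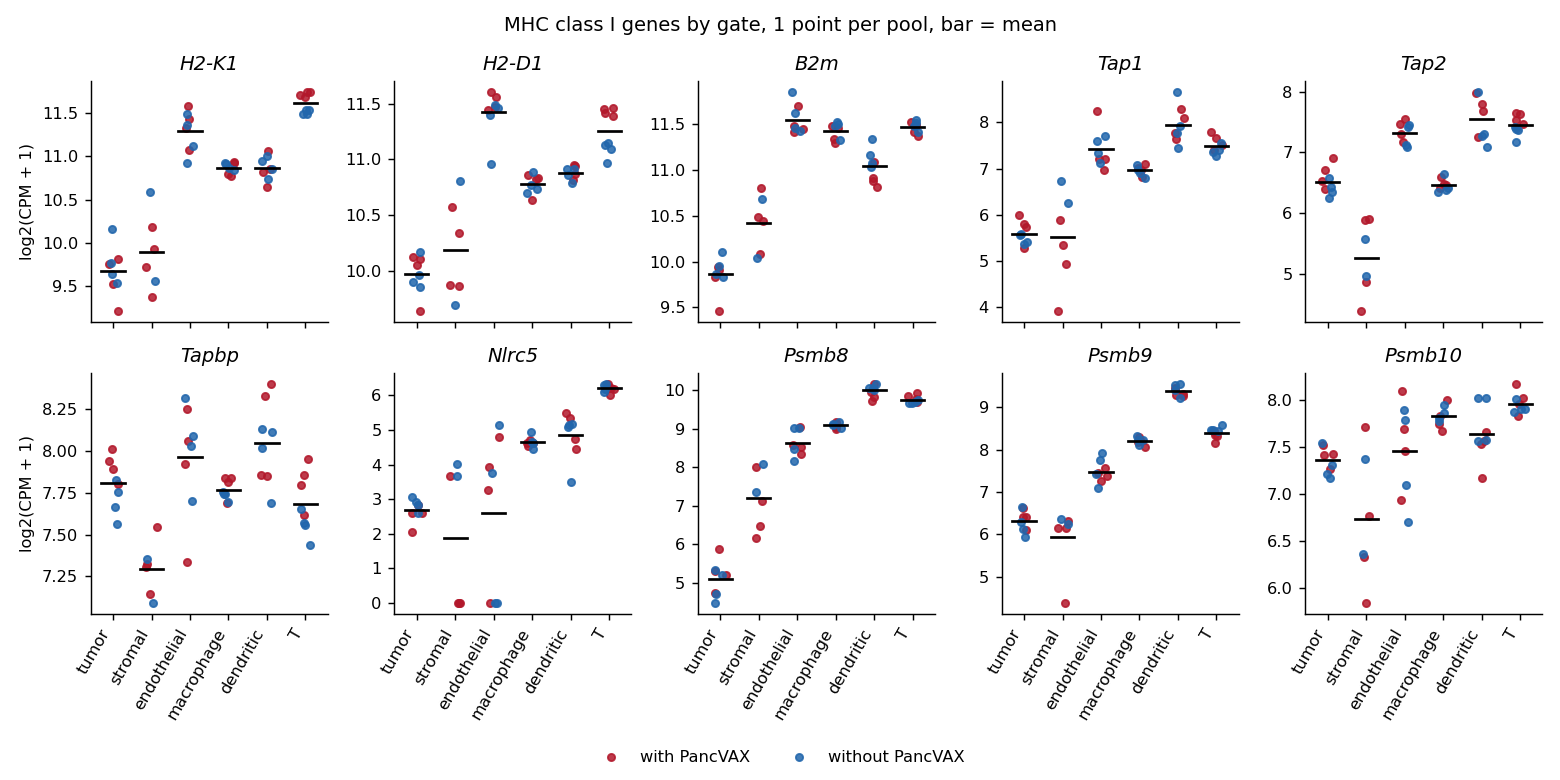
Level of each class I gene, as log2(CPM + 1), in the 6 gates (x axis), with 1 point per pool colored by PancVAX and a bar at the mean, for cells within the limits. Psmb8 shows the widest step, from 34.9 CPM in tumor cells to 1032 in dendritic cells. Tapbp ranges from 157 in stromal cells to 267 in dendritic cells.

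The 3 immunoproteasome genes did not share 1 order of cell types. Psmb8 stood at 34.9 ± 11.5 CPM in tumor cells and 164 ± 83.6 in stromal cells, and at 409 ± 97.5 in endothelial cells, 546 ± 26.0 in macrophages, 865 ± 53.6 in T cells and 1032 ± 110 in dendritic cells. Psmb9 ran from 80.0 ± 14.3 in tumor cells to 666 ± 60.1 in dendritic cells, but its tumor level did not differ beyond the spread from the stromal one (65.8 ± 22.96, adjusted p = 0.260). Psmb10 spanned only 117 ± 58.8 in stromal cells to 249 ± 19.6 in T cells. Each neighbouring pair of gates in its order had an adjusted p above 0.05, but some gates further apart differed. Its log2 difference of tumor cells within pools was −0.47 from macrophages and −0.60 from T cells (exact sign-flip test, adjusted p = 0.0122 each).

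The transporter genes also differed from each other. Tap1 was at 47.9 ± 8.50 CPM in tumor cells and 254 ± 74.1 in dendritic cells. Tap2 was at 91.5 ± 14.3 in tumor cells, next to 87.8 ± 6.52 in macrophages, a pair that did not differ beyond the spread (adjusted p = 0.616). Its highest mean was 191 ± 47.7 in dendritic cells, not beyond the spread from T cells at 175 (exact sign-flip test, adjusted p = 0.486). Tapbp lay between 157 ± 18.0 in stromal cells and 267 ± 45.6 in dendritic cells, and from dendritic through endothelial, tumor, macrophage and T cells no neighbouring pair differed beyond its spread. Nlrc5 was at 5.54 ± 1.26 in tumor cells, from 273 UMIs in all, against 24.2 ± 2.58 in macrophages and 73.2 ± 5.78 in T cells. Its endothelial and stromal levels rested on a handful of UMIs and were not ranked.

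Tumor cells were then set against each other gate within pools, as differences of log2(CPM + 1), in 50 exact sign-flip tests (two-sided) with Benjamini-Hochberg adjustment. Of these, 36 passed, 34 with tumor cells lower and 2 with tumor cells higher. Over all genes with a mean of at least 5 CPM, the same p was reached with tumor cells lower in 22.2% of 49311 tests and with tumor cells higher in 38.9%. Psmb8 was lower in tumor cells by all 5 tests. The difference was −2.01 from stromal cells (adjusted p = 0.0434, lower in 6 of 6 pools), −3.54 from endothelial cells, −3.99 from macrophages, −4.65 from T cells and −4.90 from dendritic cells (adjusted p = 0.0122 each, lower in 8 of 8 pools). The H2-K1 difference was −1.19 from macrophages and −1.94 from T cells, and the B2m differences were −1.56 and −1.61 (adjusted p = 0.0122 each, exact sign-flip test). The 2 positive differences were both from stromal cells, 1.30 for Tap2 and 0.54 for Tapbp (adjusted p = 0.0434 each).

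With no upper limits 42 of the 50 tests passed, 35 with tumor cells lower and 7 with tumor cells higher, beside 30% and 44.9% of 48674 tests over all genes, and the stromal comparison changed most. There H2-K1 (0.37), H2-D1 (0.39), Psmb9 (1.05) and Psmb10 (1.03) passed as higher in tumor than in stromal cells, while B2m, at −0.58 and past the test within the limits, was at −0.14 and no longer passed. Psmb8 was lower in tumor cells than in each gate there too. In cells with no UMI of any other type's markers the Psmb8 difference was −4.79 from macrophages and −5.51 from T cells. A share of cells gave the same order for Psmb8 when every cell was thinned to 1000 UMIs, with a UMI in 3.87% of tumor cells, 8.33% of stromal, 29.2% of endothelial, 41.1% of macrophage, 59.4% of dendritic and 55.7% of T cells. H2-K1 was seen in 42.8% of thinned tumor cells and 92.7% of thinned T cells. No gated cell type is known to lack class I, so the share that free RNA alone would give could not be measured for these genes.

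The vaccine comparison in tumor cells was fitted over the 8 pools with a term for the vaccine and 1 for each antibody (edgeR quasi-likelihood test), and a gene was called at an adjusted p under 0.05 with a log2 change beyond 0.5 in either direction. None of the 10 members was called, and 0% of 11360 genes tested in the tumor gate were called, although 14.7% (1672) had an unadjusted p under 0.05 and DESeq2 called 8 genes (0.0704%), none of them members. Changes known by simulation to be 2-fold were recovered for 92% of 200 random genes in this fit. The simulation gave all genes the same spread and no antibody effects. It does not show what the fit could recover for the 10 members or for smaller changes.

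H2-K1 was at 798, 738, 1144 and 871 CPM in the isotype, anti–PD-1, anti–CTLA-4 and double antibody pools without PancVAX. With PancVAX the same order gave 736, 863, 590 and 896 CPM. The groups overlapped, the anti–CTLA-4 pool being the highest of all without the vaccine and the lowest of all with it. The fitted log2 change was −0.26 (95% interval −0.62 to 0.10, edgeR adjusted p = 0.496). Without the pool of PancVAX and anti–CTLA-4 it was −0.05, and without the anti–CTLA-4 pool −0.07.

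H2-D1 was at 921, 953, 1148 and 997 CPM without PancVAX and at 1060, 1114, 793 and 1099 with it, in the same order of antibodies. B2m was at 912, 992, 1102 and 930 without and at 959, 981, 702 and 909 with it. Both overlapped, and for both the anti–CTLA-4 pool was again the highest without the vaccine and the lowest with it. The fitted changes were −0.05 (−0.33 to 0.23, edgeR adjusted p = 0.897) for H2-D1 (0.11 without the pool of PancVAX and anti–CTLA-4 and 0.09 without the anti–CTLA-4 pool, so its sign turned) and −0.22 (−0.48 to 0.05, adjusted p = 0.427) for B2m. Leaving out either anti–CTLA-4 pool moved B2m to −0.08 (with PancVAX) or −0.07 (without).

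The transport and loading genes had positive fitted changes that did not pass. Tapbp, the nearest to separating, was at 188, 202, 226 and 215 CPM without PancVAX and 245, 258, 222 and 236 with it, so that only the anti–CTLA-4 pools crossed. Its change was 0.15 (−0.05 to 0.35, edgeR adjusted p = 0.463). Tap1 was at 41.3, 40.1, 46.7 and 47.0 without and 52.2, 63.0, 38.0 and 55.1 with it. For this transporter subunit 3 of the 4 vaccinated pools lay above every unvaccinated pool and the vaccinated anti–CTLA-4 pool lay below them all, with a change of 0.17 (−0.14 to 0.47, adjusted p = 0.611). Leaving out 1 pool moved Tap1 between 0.035 and 0.34, and without the upper limits as well it went as low as −0.06. Tap2 ran from 74.7 to 94.4 without and from 83.4 to 119 with it, and its change was 0.18 (−0.08 to 0.44, adjusted p = 0.521). Leaving out 1 pool gave 0.08 (without PancVAX and anti–PD-1) to 0.34 (without anti–CTLA-4) for Tap2 and 0.09 (without isotype) to 0.23 (without anti–CTLA-4) for Tapbp.

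Nlrc5, the transactivator, had the lowest fitted value of the 10. It was at 5.04, 6.16, 7.29 and 6.55 CPM without PancVAX and at 5.05, 5.01, 3.18 and 6.07 with it, and the groups overlapped. The change was −0.46 (−0.98 to 0.05, edgeR adjusted p = 0.390), on few UMIs, and went to −0.21 without the pool of PancVAX and anti–CTLA-4 and −0.30 without the anti–CTLA-4 pool.

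Psmb8 had the highest fitted value and the widest spread. It was at 25.2, 21.3, 39.5 and 35.7 CPM without PancVAX and 36.1, 57.7, 25.4 and 38.3 with it. The pool with PancVAX and anti–PD-1 was the highest, its partner with anti–PD-1 alone was the lowest, and the groups overlapped. The change was 0.27 (−0.30 to 0.84, edgeR adjusted p = 0.667). Psmb9 ran from 60.1 to 99.8 without and from 67.3 to 97.7 with it (change 0.06, adjusted p = 0.894), and Psmb10 from 143 to 185 and from 153 to 184 (change 0.04, adjusted p = 0.889).

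**Figure D2:**
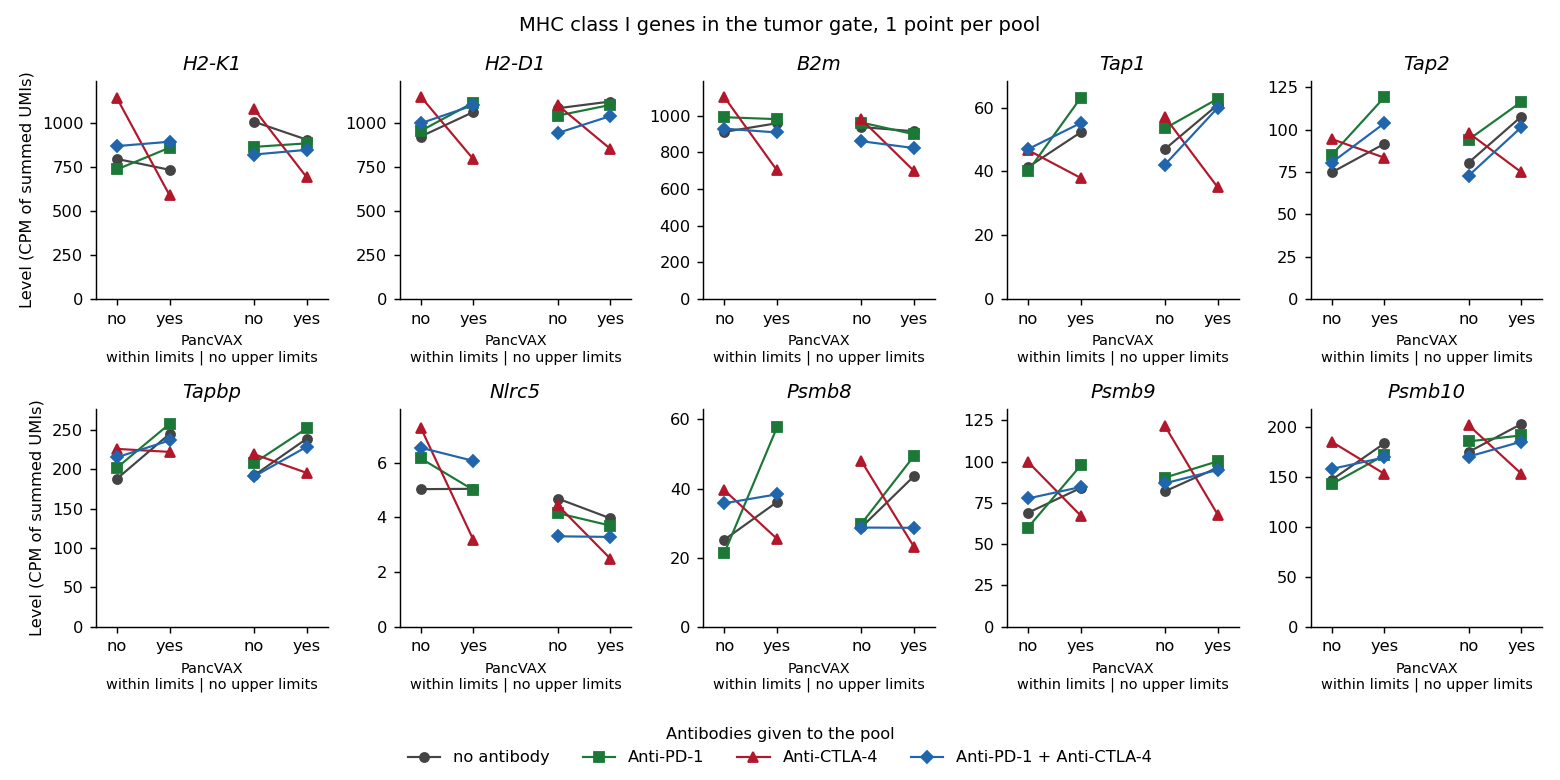
Level (CPM of summed UMIs, linear axis from 0) of each class I gene in the tumor gate of the 8 pools, without and with PancVAX, within the limits at left and without the upper limits at right of each panel, with 1 point per pool colored by antibody. In every panel the points without and with PancVAX overlap, and the anti–CTLA-4 pools lie lower with the vaccine than without it. In the key, no antibody stands for isotype antibodies.

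Over the 10 genes the median fitted change was 0.05, with 6 positive and 4 negative values, beside 0.01 over all genes tested. Without the upper limits, where each pool summed 4627 to 8479 tumor cells, again 0 members were called, with 0% of 15866 genes called and 18.5% (2930) at an unadjusted p under 0.05. The changes there were −0.22 for H2-K1, −0.07 for H2-D1, −0.22 for B2m (edgeR adjusted p = 0.263), 0.07 for Tap1, 0.15 for Tap2, 0.13 for Tapbp, −0.35 for Nlrc5 (adjusted p = 0.260), 0.01 for Psmb8, −0.13 for Psmb9 and −0.05 for Psmb10. The positive values of Psmb9 and Psmb10 within the limits were thus negative without the upper limits. Cells with no UMI of any other cell type's markers gave 0 calls as well, with −0.00 for Psmb8.

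Read antibody by antibody, each vaccinated pool has 1 partner without the vaccine, and a pair has no replicate. With isotype antibodies the log2 difference was 0.50 for Psmb8, 0.38 for Tapbp, 0.33 for Tap1 and −0.12 for H2-K1. With anti–PD-1 it was 1.40 for Psmb8, 0.69 for Psmb9, 0.64 for Tap1 and 0.22 for H2-K1, and with both antibodies it was 0.10, 0.12, 0.23 and 0.04. With anti–CTLA-4 alone all 10 members were lower in the vaccinated pool, beside 32.4% of 9370 genes of at least 5 CPM, from −0.02 for Tapbp to −0.95 for H2-K1 and −0.99 for Nlrc5, with −0.62 for Psmb8. For 7 members (H2-D1, Tap1, Tap2, Tapbp, Psmb8, Psmb9 and Psmb10) this was the only pair with a difference below 0, beside 5.67% of genes. H2-K1 was also below 0 with isotype antibodies, B2m with anti–PD-1 (−0.02) and with both (−0.03), and Nlrc5 with anti–PD-1 (−0.25) and with both (−0.10).

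Leaving out a pool moved the Psmb8 change by more than 1.5 times, to 0.53 without the anti–CTLA-4 pool, 0.55 without the pool of PancVAX and anti–CTLA-4, −0.02 without the anti–PD-1 pool and −0.01 without the pool of PancVAX and anti–PD-1. A split of the vaccine effect by anti–CTLA-4 was chosen because of these values and only describes them. It gave 0.97 for Psmb8 in mice without anti–CTLA-4 and −0.35 with it, and none of the 10 genes was called for either the effect without anti–CTLA-4 or the difference, beside 0.0088% of 11360 genes for each.

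A second view used the 16 libraries with whole tumor and Percoll as the replicates of each treatment, and compared PancVAX with isotype antibodies against isotype antibodies alone, which are 2 of the 8 pools used above. Within the limits 0 members were called, beside 0.133% of 10549 genes. The changes in this fit were 0.52 for Psmb8 (0.04 to 1.00, edgeR adjusted p = 0.514), 0.32 for Tapbp (0.09 to 0.54, adjusted p = 0.345) and −0.13 for H2-K1. With the upper limits lifted 1 member was called, beside 2.97% of 15019 genes. Psmb8 rose by 0.57 (0.38 to 0.75, adjusted p = 0.0010). Tap2 at 0.39 (adjusted p = 0.00055), Tap1 at 0.33 (adjusted p = 0.0170) and Tapbp at 0.28 (adjusted p = 0.0023) passed on p but not on size, so that 4 of 10 passed on p, beside 7.91% of genes, while H2-K1 was at −0.17 (adjusted p = 0.0537). Each arm of this comparison is 1 pool of tumors. These p-values measure the spread between both libraries of a treatment, over all treatments and beyond the mean preparation difference. They do not measure the spread between mice.

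The other heavy chain, H2-D1, was at 0.14 within the limits and 0.02 without the upper ones (edgeR adjusted p = 0.775 and 0.845). The marker sums beside these values, within the limits, were higher with PancVAX for T cells and neutrophils, as given above for all pools. Without the upper limits the T cell markers in the tumor gate summed to 2.24 to 5.50 CPM with PancVAX and 2.59 to 3.45 without it (exact permutation test, p = 0.257). In that setting the dendritic markers summed to 34.8 to 39.2 CPM with PancVAX and 29.3 to 35.6 without it, and the neutrophil markers to 1.16 to 2.54 and 0.838 to 1.23 (exact permutation test, p = 0.0571 each), while the macrophage markers summed to 13.5 to 19.7 and 14.2 to 17.5. Dendritic cells were the gate with the highest Psmb8 level, and the part of their RNA in the Psmb8 call was not tested.

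Beside the levels, the share of tumor cells with a UMI was compared after thinning each cell to 1000 UMIs, which left out none of the 7924 cells. No member passed after adjustment over the 10 tests, which would need most of them to reach the smallest p. Tapbp was detected in 20.9% ± 1.21 (SD, n = 4) of tumor cells with PancVAX and 15.7% ± 1.54 without it (exact permutation test, p = 0.0286, adjusted p = 0.286), but without the upper limits the shares were 20.5% and 17.9%. Psmb8 was detected in 4.28% with and 3.07% without (p = 0.114, exact permutation test), or in 14.6% and 11.5% of cells that were not thinned, and H2-K1 in 41.1% and 41.8%.

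The other gates gave the vaccine comparison in cells around the tumor. In macrophages the 10 changes lay between −0.10 and 0.03, with 0 called beside 0.0271% of 11083 genes, and in dendritic cells between −0.34 and 0.21, with 0 called beside 0.0228% of 4389. Endothelial cells had changes of −0.18 to 0.15 over 9 members tested (0 called, beside 0.108% of 1847 genes), and stromal cells −0.52 to 0.09 over 6 (0 called, beside 0% of 1627). These fits differed in what they could show, since simulated 2-fold changes were recovered for 94.5% of genes in macrophages, 61% in dendritic cells, 46.5% in endothelial cells and 2% in stromal cells.

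In T cells no member was called with PancVAX, beside 9.96% of 11012 genes called. On adjusted p alone 2 of the 10 passed, H2-D1 and Psmb9, beside 20.5% of genes. In 3 members, H2-D1, H2-K1 and Tap2, all 4 pools with PancVAX lay above all 4 without, beside 17.5% of 8807 genes of at least 5 CPM in this gate, and no member lay wholly below, beside 9.24%. H2-D1 was at 2236, 2179, 1995 and 2271 CPM without PancVAX (isotype, anti–PD-1, anti–CTLA-4, both) and at 2816, 2672, 2728 and 2793 with it. All vaccinated pools lay above all others, and the change was 0.28 (0.16 to 0.40, edgeR adjusted p = 0.0037). H2-K1 was at 2975, 2968, 2863 and 2879 without and at 3290, 3427, 3425 and 3342 with it, again with no overlap, and its change was 0.14 (0.04 to 0.24, adjusted p = 0.0503). Over the alternatives the edgeR or DESeq2 adjusted p of H2-K1 ran from 0.0068 to 0.211, so its side of 0.05 depended on the processing. Median UMIs per cell differed by vaccine in this gate, at 3304 with PancVAX and 4244 without (3457.5 and 4695 in CD8 T cells). The changes in T cells are therefore of the share of UMIs, and amounts per cell were not compared.

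Psmb9 went the other way in T cells, from 355, 344, 353 and 379 CPM without PancVAX to 348, 282, 323 and 318 with it. Its groups overlapped, and its change was −0.24 (−0.39 to −0.09, edgeR adjusted p = 0.0299). Over the alternatives this adjusted p ran from 0.0012 to 0.106, and it was above 0.05 in libraries of either preparation alone and at 0.106 without the pool of PancVAX and anti–PD-1. Tap2 ran from 143 to 171 without and from 175 to 199 with it, with no overlap (change 0.17, adjusted p = 0.0987). B2m (−0.10) and Psmb8 (0.05) did not pass. In CD8 T cells alone none was called, beside 11.8% of 10575 genes, and 4 passed on adjusted p alone, beside 22.8%. The values were 0.29 for H2-D1 (adjusted p = 0.0018), 0.14 for H2-K1 (adjusted p = 0.0357), 0.22 for Tapbp (adjusted p = 0.0424) and −0.23 for Psmb9 (adjusted p = 0.0321). Leaving out each pool in turn kept H2-D1 between 0.24 and 0.31 in T cells.

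**Figure D3:**
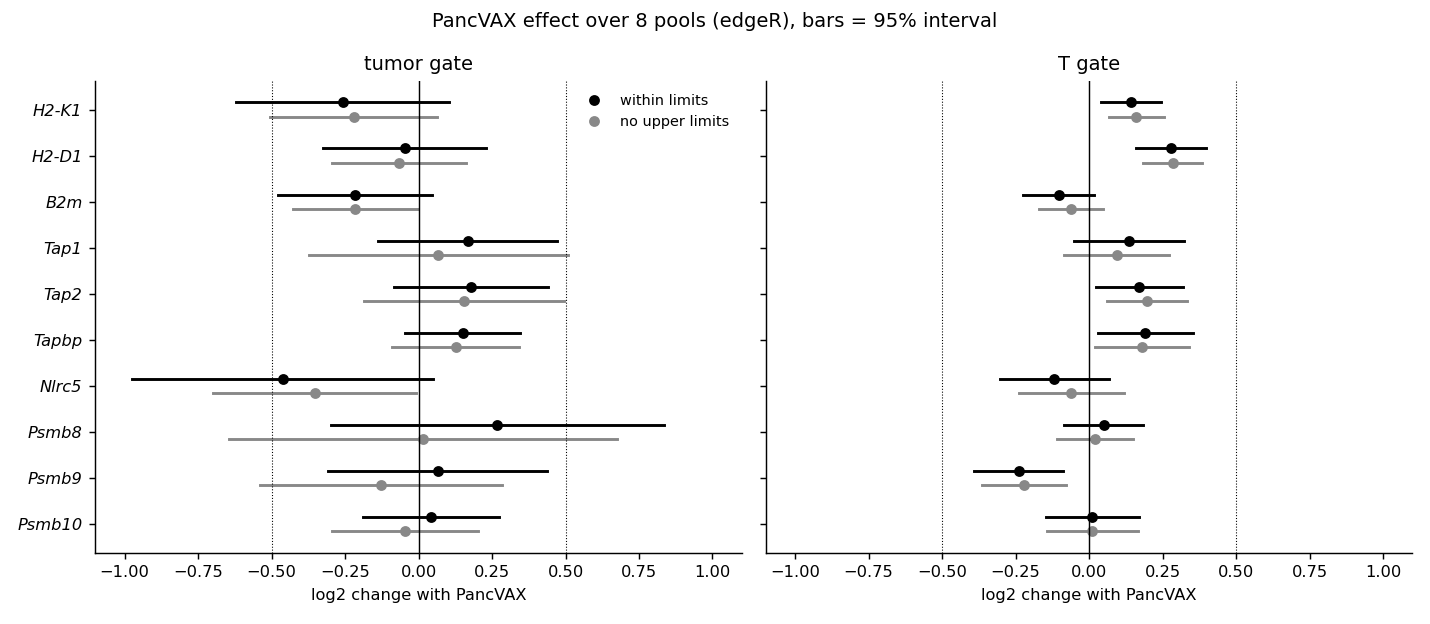
Log2 change with PancVAX (x axis) of each class I gene in the tumor gate and the T gate, from edgeR over 8 pools, with points for the estimate, bars for the 95% interval, dotted lines at the size limit, black for cells within the limits and gray for cells without the upper limits. In the tumor gate intervals are wide and all 10 within the limits cross 0, while in the T gate H2-D1 and H2-K1 lie above 0 and Psmb9 below it, inside the dotted lines.

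Whether the vaccine effect in tumor cells differed from that in another gate was tested directly, with the difference of tumor and other gate taken in each pool and compared between 4 and 4 pools. Within the limits the lowest adjusted p of 40 exact permutation tests was 0.571, shared by Psmb9 against endothelial cells, Tapbp against macrophages, Psmb10 against dendritic cells and H2-D1 against T cells, and stromal cells had too few pools. Without the upper limits, H2-K1, H2-D1 and Nlrc5 each reached the smallest p the design allows against T cells, with differences of −0.40, −0.37 and −0.24 (p = 0.0286 each, adjusted p = 0.357 over 50 exact permutation tests). The same p was reached by H2-D1 against stromal cells, with a difference of −0.32. After adjustment this design could pass the threshold only if most of the tests reached the smallest p, so these tests say little either way.

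Neither antibody moved a member past the test in tumor cells. The changes lay between −0.08 and 0.24 for anti–PD-1 (0 called, beside 0.0088% of genes) and between −0.10 and 0.13 for anti–CTLA-4 (0 called, beside 0.0264%), with edgeR adjusted p of at least 0.788 and 0.888. They lay, without the upper limits, between −0.11 and 0.11 and between −0.25 and 0.05. Between Percoll and whole tumor libraries, B2m differed in several gates by an amount under the size limit. Preparation and sequencing batch cannot be told apart in this difference. In tumor cells B2m ran from 768 to 1199 CPM in Percoll libraries and from 649 to 1001 in whole tumor libraries, which overlapped. Its change was 0.29 (0.18 to 0.40, edgeR adjusted p = 0.0015), and it was 0.41 in macrophages and 0.34 in T cells. B2m passed on p in these gates, beside 10.4%, 21.1% and 22.6% of genes. It was not called in any of them, where 2.31% (of 10549 genes), 5.23% and 6.35% were called. Tapbp (0.21, adjusted p = 0.0143) and H2-D1 (0.19, adjusted p = 0.0399) also passed on p in tumor cells, which made 3 of 10 beside 10.4% of genes. In all tumor-gate cells, without the upper limits, 7 of 10 passed on p, beside 47.1% of genes in that fit, all of them higher in Percoll libraries other than Nlrc5 (−0.18, adjusted p = 0.0374), with B2m at 0.38. Within the limits 6 of 10 passed on p in macrophages, beside 21.1%, and 2 of 10 in T cells, beside 22.6%. Each pool held both preparations.

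Other genes of the pathway were followed in lists. In tumor cells no gene of any list was called with PancVAX. Among 9 genes of assembly and peptide trimming the median change was 0.21, beside 0.01 over all genes, with Hspa5, the chaperone BiP, at 0.38 (0.17 to 0.59, edgeR adjusted p = 0.167), Pdia3, the disulfide isomerase of the loading complex, at 0.29 (adjusted p = 0.218) and Calr, calreticulin, at 0.21 (adjusted p = 0.410). The list's median was 0.13 without the upper limits, and these genes were then at 0.15 (0.03 to 0.27), 0.22 and 0.13. The 7 constitutive proteasome genes had a median of −0.09 (−0.11 without the upper limits), with Psmb4 at −0.13 and Psma3 at −0.07. Of 7 other class I heavy chain genes 5 were tested, with H2-T23 at −0.06 and H2-M3 at 0.04, with a median of 0.04. The 7 enhanceosome partners of NLRC5 had a median of 0.0048 (−0.11 without the upper limits). Rfxap, of the factor that binds the X box, was at −0.09, and Nfyb and Nfyc, subunits of the factor that binds CCAAT, were at −0.04 and 0.32 (edgeR adjusted p = 0.247). These were at −0.19, −0.20 and 0.13 without the upper limits. Among 6 dissociation and stress genes none was called and the median was 0.14 (0.02 without the upper limits), with 5 of them between −0.08 and 0.61. The other, Hspa1a, a heat shock chaperone named after its value was seen, was fitted at 4.96 (2.89 to 7.02, edgeR adjusted p = 0.167). It was at 87.3 CPM in the pool with PancVAX alone, by 345 UMIs of its Percoll library, and at 0 to 1.94 CPM in the other 7 pools. The 6 genes lay between −0.44 and 0.41 when the upper limits were lifted.

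The interferon genes in tumor cells gave no call either. Among 12 interferon signaling genes Irf1, a transcription factor that interferon gamma induces, was at 0.42 (−0.02 to 0.85, edgeR adjusted p = 0.358), and at 0.13 without the upper limits. Among 13 interferon gamma targets the median was 0.06, with Gbp2, a guanylate-binding protein, at 0.06 and the chemokine Cxcl10 at 0.61 (−0.38 to 1.59, adjusted p = 0.563). The median was −0.00 without the upper limits, with Gbp2 at −0.01 and Cxcl10 at 0.17. The 6 MHC class II genes had a median of −0.08, with Cd74, the invariant chain, at −0.06 (−0.03 and 0.01 without the upper limits). In T cells, where genes are named because they were called, beside 9.96% of all genes called there, 2 of the 12 signaling genes passed, Ifngr1 at 0.58 (adjusted p = 5.6e-05) and Irf1 at 0.72 (adjusted p = 0.00018), and 2 of 11 targets tested, Gbp2 at 0.87 (adjusted p = 0.00013) and Cxcl10 at 1.20 (adjusted p = 0.0024). The stromal, endothelial, macrophage and dendritic gates had no call in these interferon lists.

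The heavy chains and B2m varied between single tumor cells by more than counting. This view was chosen after the values above were seen and used the 40958 of 49398 tumor cells that had at least 10000 UMIs, each thinned to 10000. All of these cells lie past the study's upper limit on UMIs, so none of the 7924 cells within the limits entered. Cells of a pool came from both preparations, and the part of that difference in the values between cells, here and below, was not tested. The ratio of variance to mean over cells, which is 1 when cells differ by counting alone, was 11.2 for H2-K1 (median of 8 pools, range 8.92 to 12.2), 7.00 for H2-D1 and 5.97 for B2m. It was 3.02 for Psmb8, 2.78 for Psmb10, 2.14 for Psmb9, 1.97 for Tapbp, 1.90 for Tap1, 1.85 for Tap2 and 1.12 for Nlrc5. The ratio moves with the mean, and constitutive proteasome genes were at 1.11 to 1.38 other than Psma1 (2.83). Their means were below those of H2-K1, H2-D1 and B2m, but Psmb5 (2.47 to 2.76 UMIs per cell) and Psma3 (3.86 to 4.23) had higher means than Psmb8 (0.241 to 0.496) and Psmb10 (1.58 to 2.07). Hspa5, at a mean of 10.4 to 15.6 UMIs per cell beside 7.02 to 11.5 for H2-K1, was at 9.05 (6.62 to 10.9). That was above H2-D1 and B2m, so a ratio of this size was not particular to class I genes. Calr (2.83) and Pdia3 (2.64) were near Psmb8 but at higher means, 4.93 to 7.18 and 5.84 to 8.89 UMIs per cell. At this depth 9.35% of cells had no UMI of H2-K1 (5.62% to 15.2% between pools), while 1.28% had none of H2-D1 and 2.03% none of B2m. Equal cells would give 0.020% for H2-K1, 0.0043% for H2-D1 and 0.017% for B2m by counting alone. Hspa5 was at 0.933%, against 0.00082% for equal cells.

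The sum of H2-K1, H2-D1 and B2m had a median of 16.5 to 28.0 UMIs per cell between pools, lowest with PancVAX and anti–CTLA-4 and highest with anti–CTLA-4 alone. The 90th percentile of cells was 6.71 to 11.4 times the 10th within a pool. This ratio was 7.83 ± 1.19 (SD, n = 4) in pools with PancVAX and 9.23 ± 1.76 without it (exact permutation test, p = 0.171), and the medians averaged 20.4 ± 3.30 and 23.3 ± 3.30 (p = 0.314, exact permutation test). In these cells of at least 10000 UMIs, neither the middle nor the width of the distribution differed with the vaccine beyond the spread of pools.

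**Figure D4:**
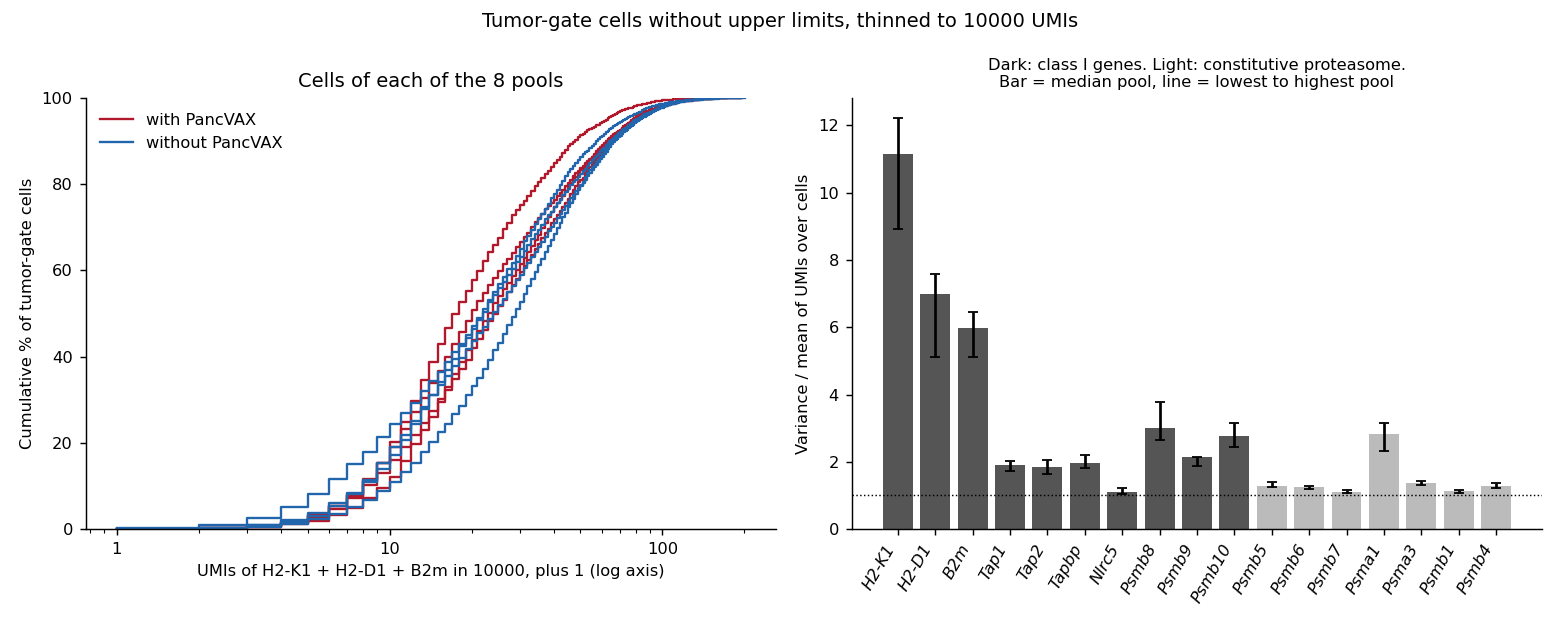
Left, cumulative percent of tumor cells of at least 10000 UMIs (y axis) by the sum of UMIs of H2-K1, H2-D1 and B2m in 10000 plus 1 (x axis, log scale), 1 line per pool in red with PancVAX and blue without it. Right, ratio of variance to mean of UMIs over cells for the class I genes (dark) and constitutive proteasome genes (light), with bars for the median pool, lines from the lowest to the highest pool and a dotted line at 1, showing H2-K1 highest at 11.2.

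Within a pool the heavy chains and B2m moved together from cell to cell, and the other members followed them less closely. Cells of a pool came from its whole tumor and Percoll libraries, and the part of their difference in these values was not tested. Over the 40958 thinned cells, the rank correlation was 0.78 between H2-K1 and H2-D1 (median of 8 pools, 0.66 to 0.82). It was 0.69 between H2-K1 and B2m, 0.36 between H2-K1 and Psmb9, 0.27 between H2-K1 and Tap1 and 0.18 between H2-K1 and Psmb8. Between H2-K1 and Psmb5, the constitutive partner of Psmb8, it was −0.02. Nlrc5 was at 0.03 with Psmb8, 0.06 with Tapbp and 0.16 with H2-K1. Genes that are no members reached values as high as most members, with 0.59 between H2-K1 and Cd74 and 0.33 between H2-K1 and Gbp2. The first of these values may include reads shared by the near-identical heavy chains. The weaker ones are between sparse counts and are given as a description.

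Cells in the highest and lowest 10% by the sum of H2-K1, H2-D1 and B2m in each pool (4097 and 4524 cells) were then compared for genes outside the sum. Tap1 was 6.81 times as abundant in the highest 10% (median of 8 pools, range 5.82 to 12.1), Tap2 4.59 times, Tapbp 3.21 times, Psmb9 8.30 times (6.56 to 15.7), Psmb10 4.28 times and Psmb8 8.75 times (1.53 to 15.4). Nlrc5 had 0.129 UMIs per cell in the highest 10% and 0.0035 in the lowest, and was higher in 8 of 8 pools. Each of the 7 members outside the sum was higher in the highest 10% in 8 of 8 pools, beside 11.1% of 10611 genes outside the sum with a mean of at least 0.02 UMIs in 10000. With a median ratio over 2 as well, it was again 7 of 7, beside 3.08%.

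Among other genes, Gbp2 was 10.8 times (7.31 to 29.3), Irf1 2.00 times and Cd74 22.4 times (9.38 to 33.9) as abundant in the highest 10%. The constitutive proteasome subunits Psmb5, Psmb6 and Psmb7 were at 0.917, 1.09 and 1.20 times, of which Psmb7 was higher in 8 of 8 pools and Psmb6 in 7 of 8. Of the other subunits Psmb1 was higher in 8 of 8 pools at 1.12 times, and Psma3 was higher in 7 of 8. Psma1 was at 0.683 (0.528 to 1.07), Hspa5 at 0.833, Krt8 at 0.798, and Fos, an early gene of tissue dissociation, at 0.929. Sox9 was at 1.48 (1.09 to 2.33) and higher in 8 of 8 pools. UMIs per cell before thinning were 0.904 times and the mitochondrial share 1.03 times those of the lowest 10%. Summed markers of macrophages were 1.12 times (1.00 to 1.46) and higher in 8 of 8 pools. Those of T cells were 0.780 times (higher in 1 of 8) and of dendritic cells 0.864 times (higher in 2 of 8). The part of macrophage RNA in the ratios above was not tested. The macrophage markers amounted to 0.179 and 0.201 UMIs per cell in the lowest and highest 10%.

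**Figure D5:**
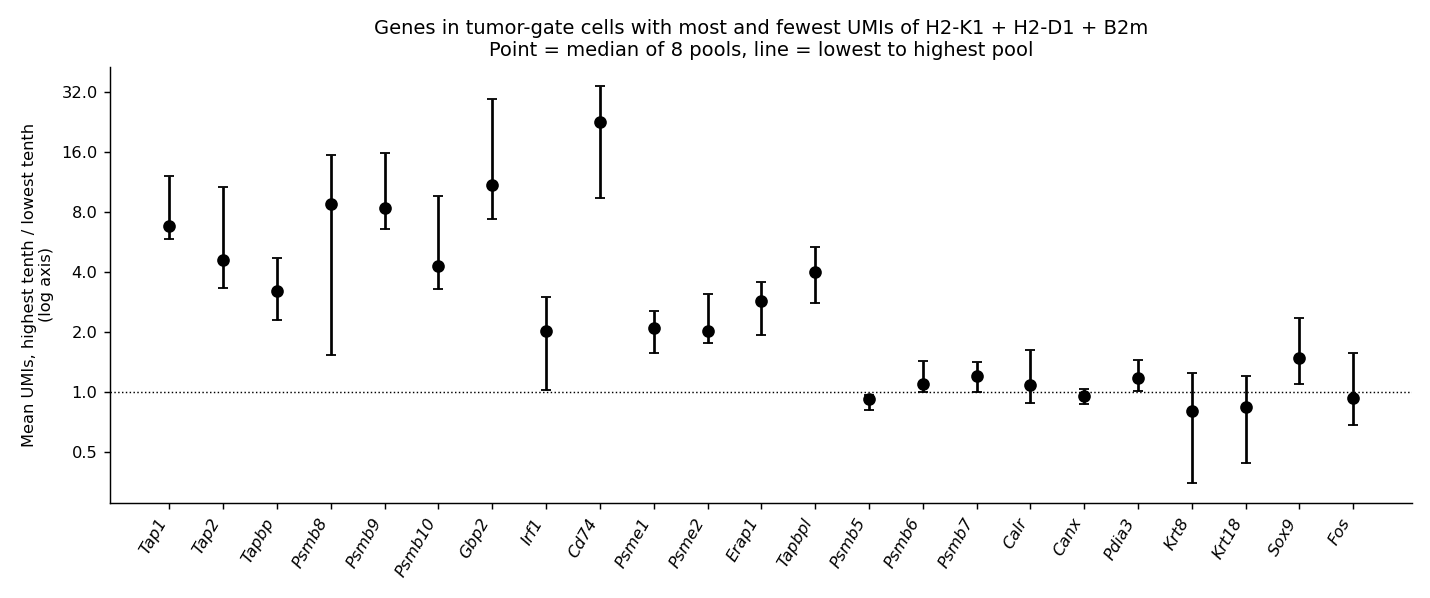
Ratio of mean UMIs (y axis, log scale) between tumor cells in the highest and lowest 10% by the sum of H2-K1, H2-D1 and B2m, for genes outside the sum (x axis), with points for the median of 8 pools, lines from the lowest to the highest pool and a dotted line at 1. Tap and immunoproteasome genes lie above 1, as does Gbp2, the only gene shown from the list of interferon gamma targets. Psmb5, Psmb6 and Psmb7 lie near 1. Cd74 is highest of the genes shown at 22.4, and Nlrc5 is not shown. Cells had at least 10000 UMIs.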

How the data were processed

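Single-cell RNA libraries (5′ chemistry) were made by the authors from pooled tumors, and the deposited matrices hold raw UMI counts per gene and barcode, without normalization. Per the labels, reads were processed with CellRanger (4.0.0) against mm10. Members and gene lists were chosen with earlier results of these data known. Cells with 200 to 3000 genes, 1000 to 10000 UMIs, under 10% mitochondrial UMIs and no hemoglobin UMI were kept. No doublet caller was run, although gates leave out cells with several markers of most other types. Cells were gated on markers. Tumor cells needed a UMI of Krt8 and of Krt18 and no Ptprc. They could hold at most 1 marker of each other type, without a limit for stromal, dendritic, pericyte and muscle markers. Stromal cells needed Col1a1, Col1a2 and at least 4 stromal markers, endothelial cells at least 3 markers and macrophages at least 4. Dendritic cells needed at least 2 markers with Ptprc, and T cells Cd3e or Cd3d and at least 3 T cell markers. Deposited counts were summed by gate and pool, pools with under 10 cells were left out, and sums were fitted with edgeR (4.0.16; filterByExpr, TMM, quasi-likelihood test, Benjamini-Hochberg over all genes tested), with DESeq2 (1.42.0) as an alternative. Adjusted p-values without another test named are from edgeR. Differences between gates used exact sign-flip tests (smallest p 0.0078 for 8 pools and 0.0312 for 6) and exact permutation tests of 4 against 4 pools (smallest p 0.0286), two-sided, on log2(CPM + 1), a scale that understates changes of low genes. Scripts were tested on simulated data. All 10 members were described, with up to 3 genes of each other list by highest level in the tumor gate, and list genes named for T cells or for single tumor cells were chosen after their values were seen. Libraries held 1793 to 7412 cells within the limits. Intervals cover the spread between pools, or between libraries in the fits of 16 libraries.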

Additional observations from a re-analysis of the deposited data

Results flagged for a closer look

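Among 40 groups of 4 tumor pools (10 genes, with and without PancVAX, within and without the upper limits, which share cells), 4 values had 1 pool far from the other 3 by Dixon's criterion, which chance meets in about 1 in 20 groups, or about 2 of 40, and 3 of them were of the pool with PancVAX and anti–CTLA-4. Its H2-D1 level within the limits was 793 CPM, against 1060 to 1114 in the other 3 vaccinated pools. Without the upper limits its Tap1 level was 35.0 CPM against 59.9 to 62.8, and its Psmb9 level 67.9 against 94.96 to 100.2. The fourth was Psmb8 without the upper limits in the anti–CTLA-4 pool without the vaccine, at 48.0 CPM against 28.7 to 29.8 in the other 3 unvaccinated pools. The cause was not tested, and each value is 1 pool.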

How the results depend on the processing

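The count of members called for PancVAX in tumor cells was 0 under each of 33 settings (other filters, scalings, gates, single preparations, DESeq2 and leaving out each pool), as were the counts for either antibody (12 settings each) and for Percoll (10). The fits reported for tumor cells called 0% of all genes for PancVAX, 0.0088% for anti–PD-1, 0.0264% for anti–CTLA-4 and 2.31% for Percoll. With so few genes called, counts of 0 among 10 members say little of stability. The counts for the difference from other gates and for the share of cells were also 0, but with 4 against 4 pools these tests could hardly pass, so this says nothing of stability. For PancVAX against isotype the count went from 0 to 1 without the upper limits, by Psmb8 at 0.57. Of the level tests 36 passed, 42 without the upper limits, 32 to 36 when a pool was left out, and 20 of 20 in cells with no UMI of another marker list, where only the macrophage and T gates could be compared, against 17 of 20 for these gates as reported. B2m against stromal cells went to −0.14 without the upper limits. Libraries of a treatment are paired by pool, and the fit of PancVAX against isotype without the preparation term (no replicate block) also called 0 members, with B2m at 0.0049 and Nlrc5 at −0.0083, and Nlrc5 was at −0.23 without the upper limits. Small PancVAX effects in tumor cells changed sign. H2-D1 went to 0.012 without TMM, 0.0084 in whole tumor libraries and 0.068 in cells with no UMI of another list. Psmb8 went to −0.0024 in cells with no UMI of another list and −0.0077 without the upper limits in Percoll libraries. Psmb9 went to −0.064 in whole tumor libraries, −0.13 without the upper limits, −0.16 in cells with no UMI of another list, −0.016 in cells with no immune UMI, −0.11 in cells with no immune UMI without the upper limits, −0.11 with a Sox9 Prelp and Ogn gate without the upper limits, −0.089 without the upper limits in whole tumor libraries and −0.15 without the upper limits in Percoll libraries. Psmb10 went to −0.10 in Percoll libraries, −0.046 without the upper limits, −0.0099 with 1 more marker, −0.0081 in cells with no immune UMI without the upper limits, −0.043 with a Sox9 Prelp and Ogn gate, −0.069 with a Sox9 Prelp and Ogn gate without the upper limits, −0.033 without the upper limits in whole tumor libraries and −0.052 without the upper limits in Percoll libraries. Leaving out each pool in turn gave −0.12 to 0.11 for H2-D1, 0.035 to 0.34 for Tap1, −0.017 to 0.55 for Psmb8, −0.087 to 0.27 for Psmb9 and −0.021 to 0.16 for Psmb10. Without the upper limits as well, values of the opposite sign were H2-D1 at 0.047 and 0.019, then Tap1 at −0.031, −0.065 and −0.022, then Psmb8 at −0.073, −0.17, −0.021, −0.16 and −0.17, then Psmb9 at −0.21, −0.18, −0.19, −0.19, −0.19 and −0.22, then Psmb10 at −0.12, −0.096, −0.051, −0.072, −0.074 and −0.099. The gates without immune UMIs, the Sox9 gate and the joined settings were chosen after seeing the data. The cause of these changes was not tested. Of 392 alternative values for the PancVAX effect of single members (10 in tumor cells, 3 in T cells), 340 kept their direction and were not called, as in the report, and 52 changed sign.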

Other observations

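The upper limit on UMIs sets which tumor cells are seen. Tumor-gate cells had a median of 6400 UMIs within the limits and 19257 without the upper ones, and the gate kept 16.0% of its cells, whereas the T gate kept 91.7%. Levels of single members differed between these views, with H2-K1 in the isotype pool at 798 CPM within the limits and 1010 without. With 4 pools on each side, changes of the size of the intervals given cannot be told from none, and for Nlrc5 and the stromal gate the counts allow little.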
